A study of Mus musculus with 24 samples.

Results

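The 10 genes described here act at the surface of epithelial cells, where proteins are cut by serine proteases and the cutting is held back by inhibitors. They are the transmembrane serine proteases Tmprss11a, Tmprss11d, Tmprss11e, Tmprss4 and St14, the secreted kallikreins Klk8, Klk10 and Klk7, and the inhibitors Spink5 and Cst6. They were taken by symbol from the 25239 genes of the deposited table, and 9 of the 10 passed a filter on low values that kept 13549 genes, with Klk7 left out. The genes were chosen by their measured fold changes in smoke against air in female cells, in male cells, and in the difference of those responses. Values for these 3 comparisons are therefore a description, and a test of a member is given only for female against male cells in air.

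The cells were mouse tracheal epithelial cells (mTECs), primary cells that form a layered sheet of ciliated, secretory and basal cells once their upper face is exposed to air. Wild-type FVB/NJ mice of both sexes, 7 to 8 weeks old, gave the cells, and all cultures were differentiated on inserts for 10 to 14 days at the air-liquid interface. The sheets were then kept for 10 days under humidified air or under cigarette smoke, 2 cigarettes burning for about 8 minutes at each exposure. The 24 libraries form 4 groups of 6 inserts, air and smoke in female cells and air and smoke in male cells. The labels name no animals or preparations behind the inserts, so errors and p-values measure the spread between inserts, which may be technical, and the sex of the cells cannot be told apart from any other difference between the cultures.

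Type II transmembrane serine proteases carry their catalytic domain outside the cell, where they can cut receptors, ion channels and the precursors of other proteases. Kallikreins are secreted trypsin-like or chymotrypsin-like proteases, known best from skin, where they loosen the contacts between cornified cells. Their activity there is held back by the Kazal-type inhibitor encoded by Spink5, while cystatins such as Cst6 block cysteine proteases of the lysosome.

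The 23 libraries with recovered read counts held 16038813 to 24485024 gene reads each. In 2 libraries the levels followed transcript length: the Spearman correlation across 13545 genes between a gene's deviation from its group and its longest transcript was -0.67 in female air insert 1 and -0.43 in female smoke insert 4, against -0.14 to 0.33 in the other 22. In these 2 libraries 4967 and 3000 genes deviated more than 2-fold, against at most 1164 in any of the other 22. Both libraries were kept in the main fit. For named genes whose calls or values moved most without either library, the value without it is given too. All 12 airway epithelial markers were detected in each group, with a summed normalised count of 214604 to 513586 in female air, 279578 to 344069 in female smoke, 421679 to 636244 in male air and 231810 to 362089 in male smoke. Abundant genes that moved in opposite directions weigh most in these sums. In female cells the mean of the basal keratin Krt5 was 78590 in air and 165813 in smoke, and that of Bpifa1 was 72697 and 15006. The mean of Foxj1 was 5449 in female air and 2047 in female smoke. The 18 squamous epithelial markers, none at 0 throughout a group, summed to 277532 to 461533 in female air, 453784 to 762508 in female smoke, 38828 to 53953 in male air and 67936 to 149947 in male smoke. By limma with Benjamini-Hochberg adjustment 10 of these 18 rose and 1 fell with smoke in female cells, 11 rose and 1 fell in male cells, and 9 were higher in female than in male cells in air. Of the 12 airway markers 1 rose and 5 fell in female smoke (median -0.54), 1 rose and 1 fell in male smoke (median -0.26), and 2 were higher and 5 lower in female than in male air (median -0.41). The 15 markers of leukocytes that carry serine proteases summed to 1368 to 3470 in female air, 1177 to 4299 in female smoke, 82.6 to 128 in male air and 131 to 536 in male smoke, mostly from Itgam and Kit, and the other 13 had a mean under 10 in each group. The leukocyte marker Ptprc reached at most 8.31, and Tpsab1, Mcpt4, Cpa3 and Gzmb were at 0 in all groups. The 9 fibroblast and endothelial markers summed to at most 475 in any library, and Dcn fell with smoke in both sexes. The part of these marker genes in the results below was not tested, and in bulk libraries fewer cells of a type and less RNA per cell cannot be told apart.

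Members at high and low levels differed by orders of magnitude. Per kilobase of exon, Tmprss4 led in female air with a mean normalised count of 2808 per kb, followed by St14 at 1439, Spink5 at 718 and Klk10 at 485. Tmprss4 and St14 did not overlap each other or the genes below them there, while the ranges of Spink5 and Klk10 overlapped. In male air Klk10 (1971 per kb) and St14 (1718) led with overlapping ranges, ahead of Spink5 (781) and Tmprss4 (669.9). Under smoke the leaders were Tmprss4 (2610.0), Klk10 (2249), St14 (1814) and Spink5 (1807) in female cells, with overlapping ranges between neighbours, and Klk10 (5409.8) and St14 (2362) in male cells, also overlapping. Tmprss11a, Tmprss11d, Tmprss11e, Klk8 and Cst6 had means at or below 512 per kb in every group.

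**Figure D1:**
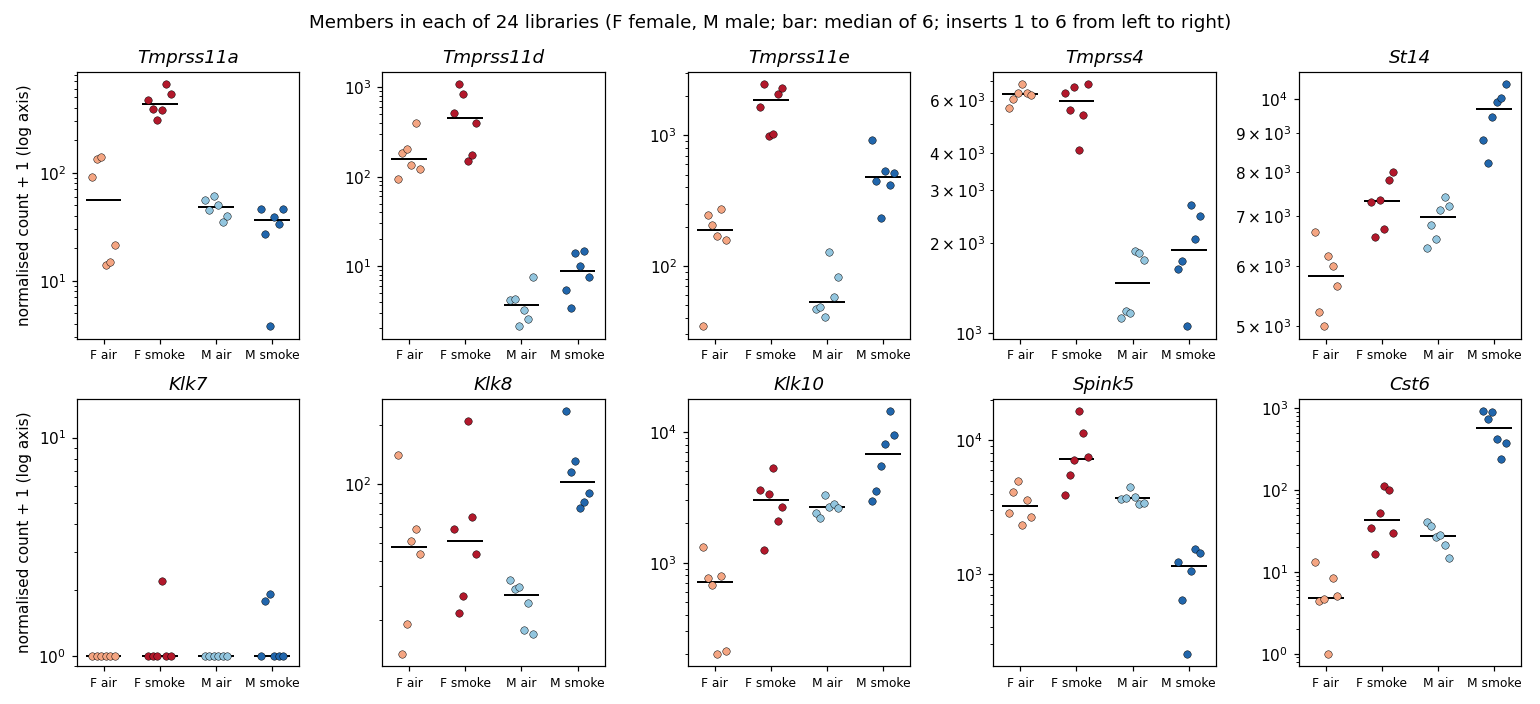
Normalised count of each member in each of the 24 inserts, on a logarithmic axis of the count plus 1, with a point per insert and a bar at the median of each group of 6. Tmprss11d and Tmprss4 lie higher in female than in male cells under both exposures, Spink5 lies lowest in male smoke, and Klk7 stays at or near 0.

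Among the membrane proteases, Tmprss11e showed high values under smoke in both sexes. Tmprss11e, also called DESC1, lies at chr5:86705186-86745807 (mm10, minus strand, 10 exons). In female air its normalised count ran from 33.5 through a median of 187 to 273, and in female smoke from 979 through 1853 to 2471. Male air held 39.8 to 127 with a median of 52.0 and male smoke 233 to 915 with a median of 479.7. In both sexes every smoke insert lay above every air insert. Smoke against air gave a log2 fold change of 3.42 ± 0.42 (SE, n = 6 per group) in female cells and 2.93 ± 0.42 in male cells, or ratios of means of 9.67 and 7.68. The female response minus the male response was 0.49 ± 0.59, with a 95% interval of -0.73 to 1.70. Female air insert 1, which follows transcript length, held the lowest female value, and without it the female fold change was 2.99 and the difference of the responses 0.06.

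Tmprss11a, a related protease of stratified epithelium, was higher in each female smoke insert than in any insert of the other 3 groups. It lies at chr5:86410410-86468990 (minus strand, 9 exons). Its normalised count ran from 13.1 through a median of 55.1 to 137 in female air and from 304 through 429 to 662 in female smoke, so that all 6 smoke inserts lay above all air inserts. In male air it ran from 33.9 through 46.7 to 59.6 and in male smoke from 2.77 through 35.2 to 45.3. The male ranges overlapped, and male smoke insert 3 held the value of 2.77. On the log2 scale the fold change was 3.33 ± 0.59 in female cells and -0.87 ± 0.59 in male cells (95% interval -2.09 to 0.35), or -0.32 in male cells without insert 3. Between the sexes the response differed by 4.20 ± 0.83 (interval 2.47 to 5.92), and under smoke the female mean was 14.5 times the male mean, with no overlap. The air values of the female cells fell apart by insert number. Inserts 1 to 3 held 89.8 to 137 and inserts 4 to 6 held 13.1 to 20.4. With inserts 1 to 3 alone the female fold change was 1.69, and with inserts 4 to 6 alone it was 4.97.

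Tmprss11d, the airway trypsin-like protease, separated the sexes more than the exposures. It lies at chr5:86302854-86373387 (minus strand, 10 exons) and is known to cut the receptor encoded by F2rl1. The normalised counts of Tmprss11d ran from 92.8 through 158 to 403 in female air and from 149 through 454 to 1090.5 in female smoke, against 1.10 through 2.68 to 6.58 in male air and 2.38 through 7.68 to 13.8 in male smoke. All female inserts lay above all male inserts, while smoke and air overlapped within each sex. In female smoke 3 of 6 inserts exceeded the highest air insert. The log2 fold change with smoke was 1.29 ± 0.48 in female and 1.15 ± 0.48 in male cells, with a difference of 0.13 ± 0.68 (interval -1.27 to 1.53). Without female air insert 1 the female value was 1.12 and not called, and the difference lay between -0.04 and 0.43 with either or both of the length-trend libraries left out. Female smoke inserts 1 to 3 held 514 to 1090.5 and inserts 4 to 6 held 149 to 395. The female fold change was accordingly 2.36 with inserts 1 to 3 alone and 0.21 with inserts 4 to 6 alone.

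Tmprss11d and Tmprss11a are neighbours on the same strand and had unlike patterns, so the stretches from 250 bases before to 50 bases after their RefSeq starts (GRCm38.p6) are shown. They are chr5:86373338-86373637 and chr5:86468941-86469240, both read 5′ to 3′ on the minus strand. The capitals mark a match to TGANTCA, searched on both strands. These letters are a loose form of the AP-1 site TGA(C/G)TCA that allows any middle letter.
Tmprss11d: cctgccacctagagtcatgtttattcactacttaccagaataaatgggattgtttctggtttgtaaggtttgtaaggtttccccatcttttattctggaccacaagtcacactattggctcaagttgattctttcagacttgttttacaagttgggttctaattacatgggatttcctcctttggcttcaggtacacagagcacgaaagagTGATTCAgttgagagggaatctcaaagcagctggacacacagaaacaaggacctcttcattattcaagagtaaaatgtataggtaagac
Tmprss11a: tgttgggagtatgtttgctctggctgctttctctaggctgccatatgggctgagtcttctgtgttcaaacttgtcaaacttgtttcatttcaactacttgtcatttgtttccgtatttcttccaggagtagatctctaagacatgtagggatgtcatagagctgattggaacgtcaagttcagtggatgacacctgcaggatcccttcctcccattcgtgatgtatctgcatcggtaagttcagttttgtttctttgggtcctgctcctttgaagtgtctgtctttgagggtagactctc
The Tmprss11d stretch held TGATTCA, starting 39 bases before the gene's start, and the Tmprss11a stretch held no match. With T in the middle, TGATTCA matches the loose form only. The letters TGANTCA occur in 7.81% of the 32851 mouse promoters of the same length. Searched in the same way, the core of aryl hydrocarbon receptor sites (GCGTG, in 32.4% of promoters), that of antioxidant response elements (TGACNNNGC, in 12.4%) and the TATA box (TATAAA, in 13.6%) were found in neither stretch. A match describes the letters only. Promoters of 5 of the 10 members were in the table used, and those of Tmprss11e, Tmprss4, St14, Spink5 and Cst6 are not shown.

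The Tmprss11 genes form a run of 7 on chromosome 5, all on the minus strand, in the order Tmprss11c, Tmprss11d, Tmprss11a, Tmprss11g, Tmprss11f, Tmprss11b and Tmprss11e. Of the neighbours, Tmprss11f rose in female smoke by 1.58 ± 0.53 (adjusted p = 0.0248) and in male smoke by 2.34 ± 0.53 (adjusted p = 0.00322). Tmprss11b rose in male smoke by 1.95 ± 0.53 (adjusted p = 0.0109), with 1.10 ± 0.53 in female cells (adjusted p = 0.112). Tmprss11g rose in male smoke by 0.93 ± 0.27 (adjusted p = 0.0168), with 0.60 ± 0.27 in female cells (adjusted p = 0.0916). For none of these 3 did the difference of the responses pass the threshold, with intervals of -2.32 to 0.80, -2.40 to 0.71 and -1.13 to 0.46. The genes around Tmprss11a had positive male fold changes, while its own was -0.87 with an interval that reached 0.35. With inserts 4 to 6 alone its male value was -0.07. Some of the male levels compared were near the floor, with means in male air of 2.97 for Tmprss11d and 1.91 for Tmprss11f. The male value of Tmprss11f ranged from 0.88 to 3.80 over the alternatives, and its call was lost with inserts 4 to 6 alone (adjusted p = 0.224). The female call of Tmprss11f was lost in 4 of 38 alternatives, among them the fit that leaves out female air insert 1 and female smoke insert 4.

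**Figure D2:**
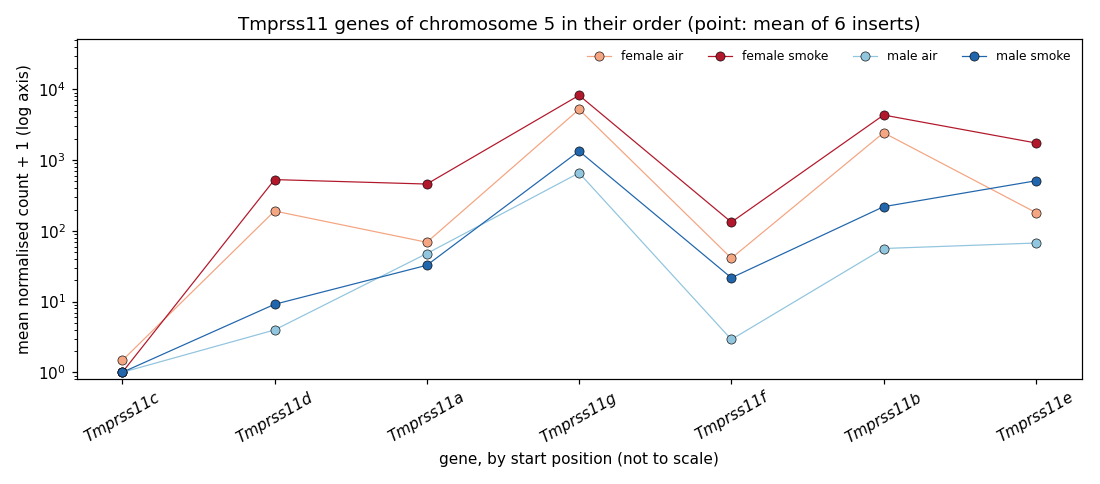
Mean normalised count plus 1 (logarithmic axis, mean of 6 inserts per point) of the Tmprss11 genes in their order along chromosome 5, with a line for each of the 4 groups. Tmprss11d, Tmprss11g, Tmprss11f and Tmprss11b lie higher in female than in male cells under both exposures, while Tmprss11a lies high in female smoke (457) and at 31.6 to 67.9 in the other 3 groups.

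Tmprss4 and St14, the members with the highest levels among the membrane proteases, had log2 fold changes under smoke of at most 0.46. Tmprss4, which can cut the epithelial sodium channel and viral surface proteins, lies at chr9:45172726-45204035 (minus strand, 13 exons) and overlaps BC049352 on the other strand, whose normalised count reached at most 9.38. Its normalised count ran from 5659.6 through 6295 to 6821 in female air and from 4112 through 5972 to 6822 in female smoke. In male cells it ran from 1123 through 1466 to 1886 in air and from 1049.9 through 1894 to 2679 in smoke. The exposures overlapped in both sexes and the sexes did not overlap. The log2 fold change with smoke was -0.12 ± 0.19 (interval -0.51 to 0.26) in female and 0.35 ± 0.19 (interval -0.04 to 0.74) in male cells. The difference of the responses was -0.47 ± 0.26 (interval -1.02 to 0.07).

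St14 encodes matriptase, which activates the anchored protease prostasin, the product of Prss8. It lies at chr9:31088590-31131799 (minus strand, 19 exons). The normalised counts of St14 ran from 4989.9 through 5822 to 6653 in female air, from 6551 through 7322 to 8008 in female smoke, from 6340.4 through 6968 to 7402 in male air and from 8231 through 9686 to 10466 in male smoke. In male cells all smoke inserts lay above all air inserts, and in female cells 5 of 6 did. Smoke moved St14 by a log2 fold change of 0.34 ± 0.08 in female and 0.46 ± 0.08 in male cells, with a difference of -0.12 ± 0.12. Its partners did not pass the test with smoke in either sex. Prss8 had 0.33 ± 0.19 in female cells and -0.34 ± 0.19 in male cells. The matriptase inhibitor Spint1 had -0.02 ± 0.24 and -0.06 ± 0.24, and Spint2, a related inhibitor, had -0.38 ± 0.18 and -0.01 ± 0.18.

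Of the kallikreins, Klk10 stood higher under smoke in both sexes. It lies at chr7:43781054-43785410 (plus strand, 6 exons) and encodes a secreted member of the family. The normalised counts of Klk10 ran from 200.5 through 716 to 1309.9 in female air, from 1253 through 3013 to 5340.2 in female smoke, from 2185 through 2646 to 3293 in male air and from 2966 through 6785 to 14382 in male smoke. In each sex 5 of 6 smoke inserts lay above the highest air insert. For Klk10 the log2 fold change was 2.38 ± 0.43 in female and 1.25 ± 0.43 in male cells, and the difference was 1.12 ± 0.61 (interval -0.14 to 2.38). In male smoke inserts 1 to 3 held 2966 to 5495 and inserts 4 to 6 held 8075 to 14382. The male fold change was 0.57 with inserts 1 to 3 alone and 1.93 with inserts 4 to 6 alone, and the female values were 1.5 and 3.25.

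Klk8, or neuropsin, stood higher under smoke in male cells, while its female values overlapped. It lies at chr7:43797577-43803826 (plus strand, 6 exons). Male normalised counts ran from 16.1 through 25.8 to 31.1 in air and from 74.3 through 101 to 234 in smoke, with no overlap. In female air it ran from 12.5 through 46.5 to 140.0 and in female smoke from 20.9 through 50.03 to 209, with wide overlap. The 2 highest female values belong to the libraries with a length trend, female air insert 1 (140.0) and female smoke insert 4 (209). For Klk8 the log2 fold change was 0.35 ± 0.50 (interval -0.68 to 1.39) in female and 2.19 ± 0.50 in male cells. The difference of the responses was -1.84 ± 0.71 (interval -3.31 to -0.37) and was not called. Without female smoke insert 4 the female fold change was -0.05, and without both libraries it was 0.31 and the difference -1.88. The fit then called the difference, but this comparison served in choosing the members, so nothing is read from the call.

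Klk7, the chymotrypsin-like kallikrein of the skin surface, was almost absent. It lies at chr7:43811294-43816387 (plus strand, 6 exons), and 3 reads were assigned to it over 23 libraries. There were 0 reads in the 6 female air and the 6 male air libraries, which allows up to 3 reads over each group, of 108785643 and 112789528 reads, counting error only. The 3 reads fell in 1 female smoke and 2 male smoke libraries, so that no fold change is given. Klk5, its activator in skin, had 2 reads, both in 1 male air library.

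The start regions of Klk10 and Klk8 shared a run of 9 letters, so both are shown in the same way as above (chr7:43780804-43781103 and chr7:43797327-43797626, plus strand, GRCm38.p6). The capitals mark this run, GTTAAAAGG, the longest that the pair has in common, which was picked after the sequences were seen.
Klk10: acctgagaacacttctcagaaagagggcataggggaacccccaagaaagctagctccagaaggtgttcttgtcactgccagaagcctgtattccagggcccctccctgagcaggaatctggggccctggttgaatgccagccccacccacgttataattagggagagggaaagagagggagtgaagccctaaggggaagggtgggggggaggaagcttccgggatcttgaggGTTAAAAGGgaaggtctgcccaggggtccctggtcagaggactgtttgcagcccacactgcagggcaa
Klk8: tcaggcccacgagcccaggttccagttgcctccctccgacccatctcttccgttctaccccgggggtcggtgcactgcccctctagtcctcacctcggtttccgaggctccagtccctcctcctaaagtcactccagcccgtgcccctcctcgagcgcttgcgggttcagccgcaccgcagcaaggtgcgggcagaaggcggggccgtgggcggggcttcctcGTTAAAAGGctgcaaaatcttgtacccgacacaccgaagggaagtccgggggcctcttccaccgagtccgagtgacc
The run began 18 bases before the start of Klk10 and 27 bases before the start of Klk8, and it occurs in 0.17% of all promoters of this length on either strand. The Klk7 stretch (chr7:43811044-43811343) did not hold it. None of the other motifs searched was found in the windows of Klk10 and Klk8.

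Both genes lie in a row of 12 kallikreins on chromosome 7, counted from Klk14 to Klk15 among symbols made of Klk and a number. Genes with other symbols or beyond this stretch were not counted. Of the 10 other kallikreins in the list 4 passed the filter, and 3 of these rose in each sex. Beside them, 15.5% of all tested genes rose in female smoke and 9.76% in male smoke. Klk13 rose by 3.54 ± 0.41 in female smoke (adjusted p = 4.85e-06), from a median of 12.9 to 125 with no overlap. In male smoke it rose by 1.28 ± 0.41 (adjusted p = 0.0288), a call lost in 6 of 39 alternatives. Klk9, which lies between Klk10 and Klk8, had 1.61 ± 0.46 in male cells (adjusted p = 0.0158) and 0.19 ± 0.46 in female cells (adjusted p = 0.785), and it passed the filter only through male smoke, with a mean of 7.73 over the other 3 groups. The call was also made with no filter. Klk11 rose by 0.74 ± 0.28 in female (adjusted p = 0.0465, lost in 17 of 39 alternatives) and by 1.08 ± 0.28 in male cells (adjusted p = 0.00891). Klk14 rose by 1.10 ± 0.39 in female cells (adjusted p = 0.0338, lost in 9 of 38 alternatives), with 0.79 ± 0.39 in male cells (adjusted p = 0.159). No difference of the responses passed the threshold in these 4 genes, the nearest being Klk13 at 2.25 ± 0.59 (adjusted p = 0.0632).

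**Figure D3:**
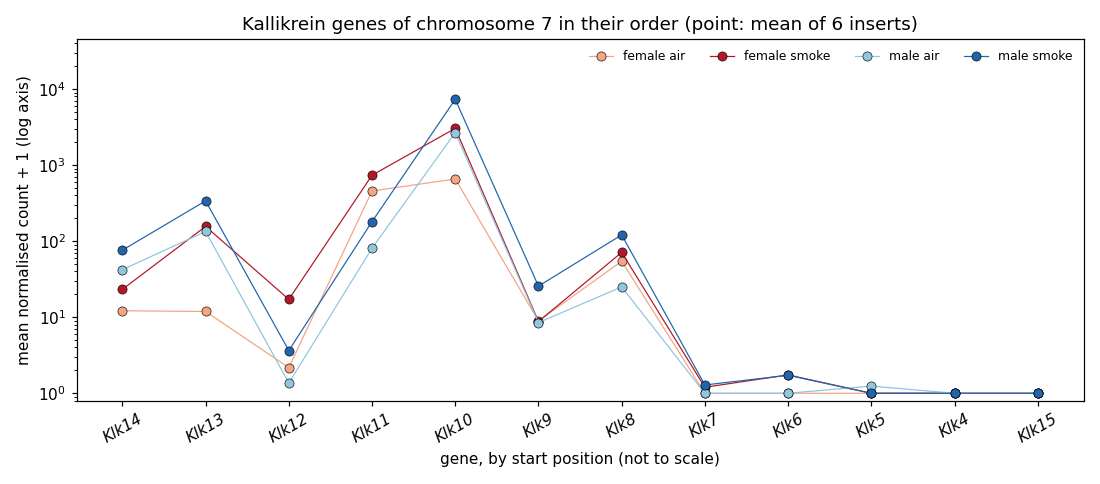
Mean normalised count plus 1 (logarithmic axis, mean of 6 inserts per point) of the kallikrein genes counted from Klk14 to Klk15, in their order along chromosome 7, with a line for each of the 4 groups. Klk10 and Klk13 lie lowest in female air (657 and 10.9), Klk9 and Klk8 lie highest in male smoke (24.6 and 119.9), and Klk7, Klk6, Klk5, Klk4 and Klk15 lie at or near 0 in every group.

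The inhibitor Spink5 moved in opposite directions in the sexes. It encodes LEKTI, a chain of Kazal-type domains that blocks several kallikreins and whose loss in people causes Netherton syndrome, and it lies on chromosome 18 with 32 exons. Its normalised count ran from 2325 through 3225 to 4969.9 in female air and from 3878 through 7275 to 16466 in female smoke, where 5 of 6 inserts exceeded the highest air insert. In male cells it ran from 3348 through 3689 to 4469.5 in air and from 254 through 1142 to 1531 in smoke, and all smoke inserts lay below all air inserts. For Spink5 the log2 fold change was 1.22 ± 0.35 in female and -2.07 ± 0.35 in male cells. The responses differed by 3.29 ± 0.50 (interval 2.26 to 4.33), and under smoke the female mean was 8.40 times the male mean, with no overlap. Female smoke inserts 1 to 3 held 3878 to 7078 and inserts 4 to 6 held 7471 to 16466. The female fold change was 0.46 with inserts 1 to 3 alone and 1.98 with inserts 4 to 6 alone, while the male values were -2.74 and -1.40 and the differences 3.20 and 3.38. Leaving out both libraries that follow transcript length gave a female fold change of 0.96 and a difference of 3.03.

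Cst6, or cystatin M/E, stood higher under smoke in both sexes and blocks the cysteine proteases legumain and cathepsin L. It lies at chr19:5344705-5349574 (minus strand, 3 exons). Its normalised count ran from 0 through 3.86 to 12.2 in female air, from 15.6 through 42.4 to 113 in female smoke, from 13.9 through 26.2 to 39.4 in male air and from 238 through 578 to 919.6 in male smoke. In both sexes every smoke insert lay above every air insert, and under smoke every male insert lay above every female insert. The log2 fold change was 3.30 ± 0.52 in female and 4.33 ± 0.52 in male cells, or ratios of means of 11.2 and 22.3. The difference was -1.04 ± 0.74 (interval -2.57 to 0.49). Male smoke inserts 1 to 3 held 733 to 919.6 and inserts 4 to 6 held 238 to 423, and the difference was -2.39 with inserts 1 to 3 alone and 0.31 with inserts 4 to 6 alone.

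Across the 9 members that passed the filter, the fit over all genes called 7 in female smoke, all higher, beside 34.8% of all tested genes (15.5% higher and 19.3% lower). In male smoke it called 6, of which 5 were higher and Spink5 was lower, beside 22.0% of all genes (9.76% higher and 12.2% lower). In the difference of the responses it called Tmprss11a and Spink5, both higher in the female response, beside 1.03% of all genes (0.694% higher and 0.340% lower). Smoke and air inserts did not overlap for 3 members in female cells (12.5% of all genes) and for 5 in male cells (25.2%). The median log2 fold change of the 9 was 1.29 in female and 1.15 in male cells, against 0.00 and -0.01 over all genes tested. Since these comparisons chose the members, nothing is read from these counts. In the authors' deposited tables, with the sign turned to smoke against air, all 9 had the same sign as here in each sex, and 7 passed an adjusted p of 0.05 in female and 7 in male cells. Those comparisons come from the same study, and the share of all genes passing there was not counted. Nothing is read from these counts either.

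**Figure D4:**
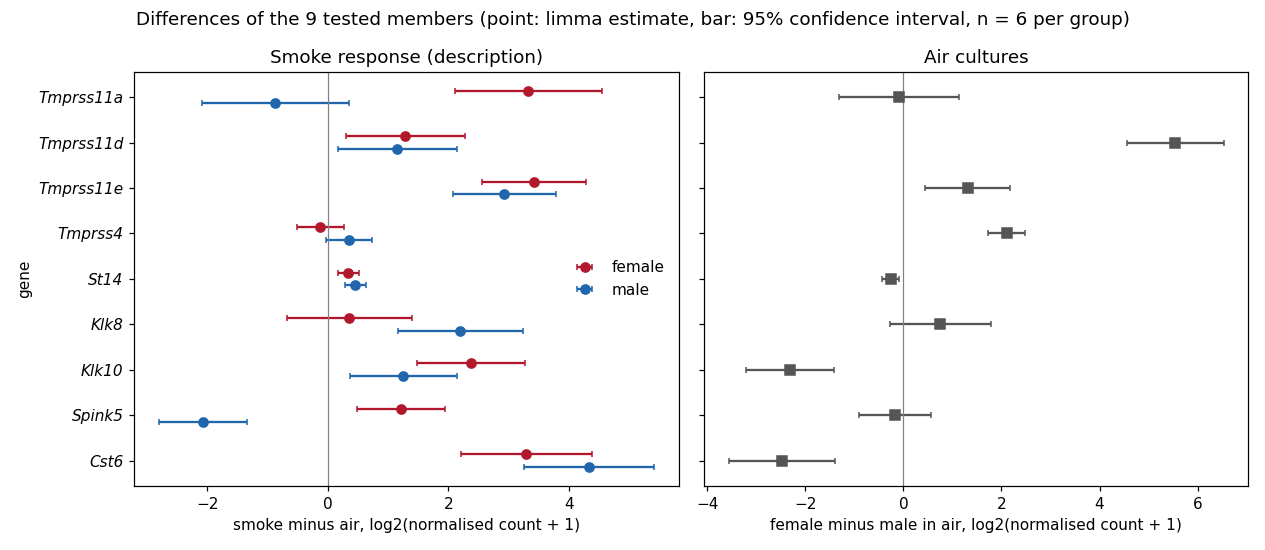
Log2 differences of the 9 members that passed the filter, with the limma estimate as a point and its 95% confidence interval as a bar (n = 6 per group, with the spread of a gene shared by all groups), for smoke minus air in female and male cells on the left and for female minus male cells in air on the right. The female and male smoke estimates lie on opposite sides of 0 for Tmprss11a (3.33 and -0.87), Spink5 (1.22 and -2.07) and Tmprss4 (-0.12 and 0.35), and in air Tmprss11d lies farthest from 0 (5.54).

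Female against male cells in air was not among the 3 comparisons that chose the members, so a test is given. The same air libraries entered those comparisons, so this test is not independent of the choice. The threshold was passed by 6 of the 9 members, beside 39.0% of all genes (20.0% higher and 19.0% lower in female cells). Tmprss11d was higher in female cells by 5.54 ± 0.48 (adjusted p = 3.31e-09), a ratio of means of 63.8, and Tmprss4 by 2.10 ± 0.19 (adjusted p = 4.85e-09), a ratio of 4.19. Tmprss11e was higher by 1.31 ± 0.42 (adjusted p = 0.0152), with 5 of 6 female inserts above the highest male insert and female air insert 1 below the lowest. Without that insert the value was 1.74. Klk10 was lower in female cells, at -2.32 ± 0.43 (adjusted p = 0.000166), as were Cst6 at -2.48 ± 0.52 (adjusted p = 0.000611) and St14 at -0.26 ± 0.08 (adjusted p = 0.018). The 6 female and 6 male inserts did not overlap for Tmprss11d, Tmprss4, Klk10 and Cst6, 4 of 9 beside 33.2% of all genes. Spink5 (-0.16 ± 0.35, adjusted p = 0.738), Tmprss11a (-0.08 ± 0.59, adjusted p = 0.925) and Klk8 (0.75 ± 0.50, adjusted p = 0.240) did not pass, and without female air insert 1 Klk8 was at 0.40 and Tmprss11a at -0.29. Tmprss11a in air was 1.15 with inserts 1 to 3 alone and -1.32 with inserts 4 to 6 alone, where it passed (adjusted p = 0.00289). In the authors' deposited table, with its sign turned to female against male, 8 of 9 members had the same sign, 6 passed an adjusted p of 0.05, and Tmprss11a had 0.46. That comparison comes from the same study, and the share of all genes passing in it was not counted.

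The neighbours of the Tmprss11 run had female levels in air that were higher as well. Tmprss11b was higher by 5.12 ± 0.53 (adjusted p = 5.64e-08), Tmprss11f by 3.90 ± 0.53 (adjusted p = 3.63e-06) and Tmprss11g by 2.95 ± 0.27 (adjusted p = 8.64e-09), all with no overlap between the sexes. Tmprss11a, which lies between Tmprss11d and Tmprss11g, was the exception at -0.08. In the kallikrein row Klk13 (-3.59 ± 0.41) and Klk14 (-2.0 ± 0.39) were lower in female cells, as Klk10 was, and Klk11 was higher by 2.46 ± 0.28. Of the 18 squamous markers 9 were higher in female cells in air, and their part in these differences was not tested.

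Other genes of the same biology came from 6 lists of 109 genes, of which 104 were in the table and 55 passed the filter. Of these 55, 13 rose and 9 fell in female smoke, 16 rose and 11 fell in male smoke, 4 differed in response and 39 differed between the sexes in air. Over all genes tested 15.5% rose and 19.3% fell in female smoke, and 9.76% rose and 12.2% fell in male smoke. The difference was called for 1.03% of all genes and the air comparison for 39.0%. The same shares stand beside the counts of each list below. The median log2 fold change of the 55 was 0.14 in female and 0.06 in male cells.

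Of 11 other membrane-bound serine proteases tested, 3 rose and 1 fell in female smoke and 5 rose and 2 fell in male smoke. Prss27, a membrane-anchored protease of stratified epithelium, rose by 1.46 ± 0.35 in female (adjusted p = 0.00268) and by 2.03 ± 0.35 in male cells (adjusted p = 0.000253). It was also higher in female than in male air by 3.90 ± 0.35, with a median of 398 against 28.1.

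Of 12 other serine protease inhibitors tested, 2 rose and 2 fell in each sex. Slpi, the secreted leukocyte protease inhibitor of airway mucus, rose by 2.75 ± 0.39 in female (adjusted p = 3.52e-05) and by 2.05 ± 0.39 in male cells (adjusted p = 0.000741), and in both sexes no smoke insert overlapped an air insert. Wfdc12, a small inhibitor of the same fold, rose in female cells by 2.73 ± 0.46 (adjusted p = 0.000158), with a median of 14.7 in air and 131 in smoke. It passed the filter only through female smoke, and was also called there with no filter. In male cells its highest value was 1.07, so the fitted difference of the responses rests on the female values. That difference was 2.90 ± 0.64 (adjusted p = 0.0286, lost in 11 of 38 alternatives). A2ml1, an alpha-2-macroglobulin-like inhibitor, fell in female cells by 2.70 on the log2 scale (adjusted p = 0.0323), and the call was lost in 7 of 39 alternatives. Its value was -1.36 without female smoke insert 4, -0.41 with inserts 1 to 3 alone and -4.98 with inserts 4 to 6 alone. Wfdc15b had the largest difference between the sexes in air of the 55, at 7.24 ± 0.48 (adjusted p = 3.7e-11).

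Of 5 other cystatins tested, 1 rose and 2 fell in female smoke and 2 rose and 1 fell in male smoke. Csta1, a cystatin A gene, rose by 2.06 ± 0.53 in female (adjusted p = 0.00453) and by 3.33 ± 0.53 in male cells (adjusted p = 0.000119). It belongs, like Stfa3, to a family of near-identical copies, so that reads may be split between them and both are uncertain. Stfa3 was listed at 0 in all male air inserts, ran from 0 to 4.42 in male smoke and passed the test there (adjusted p = 0.0242), a call lost in 3 of 38 alternatives, among them a pseudocount of 5 and the fit without male smoke insert 1. Fetub, a fetuin that blocks astacin-type proteases, fell by 1.73 on the log2 scale in female (adjusted p = 0.000927) and by 1.59 in male cells (adjusted p = 0.0027).

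Of 7 cysteine proteases that cystatins block, 3 fell and 0 rose in female smoke and 2 fell and 0 rose in male smoke, beside 19.3% and 12.2% of all genes lower. The median of the 7 was -0.06 in female and -0.27 in male cells. Lgmn, which encodes legumain, a protease that Cst6 inhibits, fell by 0.92 on the log2 scale in male cells (adjusted p = 0.00103), with no overlap, and by 0.51 in female cells (adjusted p = 0.0333, lost in 8 of 39 alternatives, with -0.33 without female air insert 1). Ctsl, which encodes cathepsin L, fell by 0.82 in female cells (adjusted p = 5.22e-05), with -0.14 ± 0.12 in male cells (adjusted p = 0.436), and the difference of the responses was -0.67 ± 0.17 (adjusted p = 0.0558). Ctsh fell by 0.60 in female (adjusted p = 0.00965, and -0.39 with both length-trend libraries left out) and by 0.59 in male cells (adjusted p = 0.0168).

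Of 16 substrates and receptors tested, 4 rose and 1 fell in female smoke and 4 rose and 4 fell in male smoke. Dsg1b, a desmoglein of cornified epithelium, rose in female smoke by 3.76 ± 0.70 (adjusted p = 0.0004), from at most 2.78 in air to 7.25 to 246 in smoke. It passed the filter only through female smoke, with a mean of 1.83 over the other 3 groups, and was also called with no filter, and its log2 fold change ranged from 2.40 to 5.64 over the alternatives. Scnn1b and Scnn1g, subunits of the epithelial sodium channel that membrane proteases can activate, fell in male smoke by 2.68 (adjusted p = 1.24e-05) and by 1.59 (adjusted p = 0.000194) on the log2 scale. In female cells they had -0.51 ± 0.34 (adjusted p = 0.259) and 0.13 ± 0.26 (adjusted p = 0.749), and their levels in female air differed from male air by -3.86 ± 0.34 and -4.78 ± 0.26. The responses differed by 2.16 ± 0.48 for Scnn1b (adjusted p = 0.0286, lost in 10 of 39 alternatives) and by 1.72 ± 0.37 for Scnn1g (adjusted p = 0.0246, lost in 2 of 39). Plau, the urokinase protease, rose in male smoke by 1.68 ± 0.32 (adjusted p = 0.000734), with -0.18 ± 0.32 in female cells. Its difference of -1.86 ± 0.45 (adjusted p = 0.0475) was lost in 25 of 39 alternatives. Scnn1g was named after its value was seen, as 1 of the 4 genes called in the difference.

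Within groups, the members varied together only in part. After each group mean was subtracted from the log2 values of the 24 libraries, Tmprss11a and Spink5 had a Pearson correlation of 0.63 (0.73 when female air insert 1 and female smoke insert 4 were left out). Klk8 had 0.57 with Cst6 (0.39 without them) and -0.58 with Tmprss11d (-0.43 without them). Tmprss11e and Tmprss11a, in the same run, had 0.13 (0.37 without them). The tested gene outside the members most like each was Olfm4 for Tmprss4 (0.93), Cnn2 for Klk8 (0.92), Spns2 for Tmprss11e (0.91), Cxcl5 for Klk10 (0.88), Tapbp for St14 (0.85), Phyhip for Tmprss11a (0.85), Ckap2l for Spink5 (0.84), Tgtp2 for Tmprss11d (0.81) and Sncg for Cst6 (0.77). All points share the libraries' depth and scaling, and each was the highest of all tested genes, so these values describe the libraries and carry no p.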

How the data were processed

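The values are a signal, counts that the authors normalised with DESeq2 and deposited as 1 table of 25239 genes by 24 libraries. In 23 columns they were whole multiples of 1 step within 0.001 reads, so whole reads were recovered. In male smoke insert 5 the step was too near 1, and it was left out of the count tests. The authors' deposited tables of comparisons give a log2 fold change with its standard error and a p-value with its adjusted form, and per the file headers positions on mm10. Listed in the submitters' processing notes are HTSeq, DESeq2, Trimmomatic 0.38.0 and FastQC 0.11.9, and the genome builds mm10 and GRCm38. Which aligner was used, and whether the counting used strand, is not given in the sources used here. The kit for the libraries was NEBNext Ultra II, per the labels.

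Genes averaging at least 10 over the 24 libraries were tested as log2 of the normalised count plus 1, in R 4.3.3 with limma 3.58.1, as 1 eBayes fit with a mean-variance trend and a term per group, two-sided, with calls at an adjusted p (Benjamini-Hochberg over all 13549 genes) below 0.05. Female minus male smoke response is the difference of the responses. The fit was tested on simulated data. The alternatives were TMM, library total and quantile scaling, pseudocounts of 0.5 and 5, an average of at least 50 or no filter, a block for the insert number, a fit of only the compared groups, limma's array weights, inserts 1 to 3 or 4 to 6 alone, leaving out the 2 libraries with a length trend or each library in turn, and edgeR 4.0.16 and DESeq2 1.42.0 on the recovered reads. The members and lists were chosen with earlier results of these data known. All members are named, with the 3 called genes of each list with the largest smoke fold change, the 2 largest of all lists in the difference and in air, and the neighbours and partners that the rule lists. Promoters are from RefSeq.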

Additional observations from a re-analysis of the deposited data

Results flagged for a closer look

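Of 36 groups of 6 inserts checked for a library far from the rest, 2 held one, and chance gives about 1 in 20. Tmprss11a had a normalised count of 2.77 in male smoke insert 3, far below the other 5 male smoke inserts. Tmprss11e had 33.5 in female air insert 1, far below the other female air inserts, and this is a library whose levels followed transcript length.

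The female minus male smoke response was 4.20 (log2) for Tmprss11a and 3.29 for Spink5. The fit over all genes called both, but these members were chosen on this comparison, so the values are a description, no p is given and a test independent of that choice was not made. Among the other genes of the lists, the interaction term passed the threshold for Wfdc12 at 2.90, Scnn1b at 2.16, Scnn1g at 1.72 and Plau at -1.86. The call was lost in 11 of 38 alternatives for Wfdc12, among them edgeR and DESeq2, and in 25 of 39 for Plau. For Scnn1b it was lost in 10 of 39 and for Scnn1g in 2 of 39. Wfdc12 passed the filter only through female smoke and was near the floor in male cells, so its value rests on the female cells.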

How the results depend on the processing

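Of the members' fold changes over the 39 alternatives, 1380 values kept their side of the threshold in air or moved by less than the spread between inserts under smoke, and 12 moved by more. No called smoke value of a member changed sign, and in air the only member to do so was Tmprss11a, at -0.08: 1.15 with inserts 1 to 3 alone, 0.54 with edgeR, 0.54 with DESeq2, and from -0.41 without female air insert 3 to 0.25 without female air insert 4, where inserts 5 (0.23) and 6 (0.13) left out also gave positive values. In air Tmprss11e lost its call with inserts 1 to 3 alone (adjusted p = 0.164), as did St14 (0.248), which also lost it without female air insert 3 (0.0523). Klk8 gained a call with array weights (0.0288) and with inserts 4 to 6 alone (0.0393). None of the 92 calls of the other pathway genes changed sign.

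Over all genes the share called in the difference went from 1.03% to 17.9% with array weights and 0.295% with inserts 1 to 3 alone, and in female smoke from 34.8% to 56.9% and 4.84%. With inserts 4 to 6 alone it rose to 4.7% in the difference and 46.1% in female smoke. Without both libraries that follow transcript length it was 6.2% and 45.7%. In male smoke the share went from 22.0% to 49.3% with array weights and to 47.2% without both those libraries. With only the groups compared it was 45.4% in male smoke and 21.1% in female smoke. With inserts 1 to 3 alone it was 18.5% in male smoke. Which sex had the larger share called under smoke therefore depended on the fit. Members called in female smoke went from 7 to 3 with inserts 1 to 3 alone, and in the difference from 2 to 0 there and to 4 with array weights. Other pathway genes called in the difference went from 4 to 7 with quantile scaling, 2 with a filter at 50, 17 with array weights, 2 with inserts 1 to 3 alone, 7 with inserts 4 to 6 alone and 10 when both libraries that follow transcript length were left out. Those higher in female smoke went from 13 to 22 with array weights and 5 with inserts 1 to 3 alone, and those lower from 9 to 15 with no filter, 5 with only the groups compared and 0 with inserts 1 to 3 alone. In male smoke those higher went from 16 to 10 with inserts 1 to 3 alone and those lower from 11 to 7 with inserts 4 to 6 alone. The causes of these changes were not tested.

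With each library left out in turn, members called ranged from 6 to 7 in female smoke, 5 to 7 in male smoke, 2 to 2 in the difference and 5 to 6 in air. In the same order, the share of all genes called ranged from 30.6% to 46.1%, 15.6% to 33.9%, 0.554% to 3.18% and 34.6% to 44.8%. Other pathway genes ranged from 9 to 17 higher and 7 to 11 lower in female smoke, 14 to 20 and 9 to 12 in male smoke, 37 to 41 in air and 1 (without female air insert 4) to 7 (without female air insert 1) in the difference. Scaling by the library total moved the median of all genes in air to -0.11 and the share higher among called genes from 51.4% to 38.1%.

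The insert numbers are shared by the groups but the labels tie them to nothing, and they were not taken to pair the libraries, since not every same-numbered pair deviated together. Correlations were above 0.1 in 5 of 6 pairs of female air and smoke (-0.21, for insert 1, to 0.37) and in 2 of 6 pairs of male air and smoke (-0.24 to 0.12), and 2 of 6 and 0 of 6 correlated best with their own number. With the insert number as a replicate block 6 members were called in female smoke, 5 in male smoke, 2 in the difference and 6 in air, and of the other pathway genes 13 higher and 9 lower, 16 higher and 10 lower, 3, and 38. The shares of all genes called with this block were 33.5%, 20.7%, 0.827% and 38.4% in the same order.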
